A study of Homo sapiens with 26 samples.

Results

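The BCL2 family proteins decide whether the outer mitochondrial membrane stays closed. Anti-apoptotic members (BCL2, BCL2L1 or BCL-XL, MCL1 and BCL2A1 or BFL1) hold back the effectors BAX and BAK1, which form pores in that membrane and release cytochrome c. BH3-only members (BID, BCL2L11 or BIM, PMAIP1 or NOXA, and HRK or Harakiri) bind the anti-apoptotic members or activate the effectors, and they differ in partners: NOXA binds mainly MCL1 and BFL1, Harakiri mainly BCL-XL, and BIM all of the anti-apoptotic members. These 10 genes were taken by their symbols from a table of 41078 genes, and all 10 were found.

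Messenger RNA had been sequenced once from each of 26 single cell-derived cell lines (SCDCLs), 12 labelled BxPC3 and 14 labelled Panc-1. Both are established lines of pancreatic ductal adenocarcinoma, of classical and basal-like subtype respectively, and each SCDCL was grown from 1 cell by limiting dilution, so that a library stands for 1 clone and no clone has a replicate. The labels give gemcitabine as treatment for each library, but the protocols describe gemcitabine only in viability assays. The response of each clone to gemcitabine is not in the labels and was not analysed here. Levels are given in TPM, a transcript abundance scaled to transcript length and to the total of the library, which can be compared between genes of a library. Totals ranged from 27035724 to 34945608 estimated counts per library.

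SMAD4, a transducer of TGF-beta signals that BxPC3 is known to lack, went against the label of 14 libraries. It was at most 0.044 TPM in 12 libraries, of which 5 were labelled BxPC3 and 7 Panc-1, and 28.1 to 52.2 TPM in the 14 others, 7 of each label. The members are therefore described in these 12 SMAD4-null and 14 SMAD4-expressing libraries, sets as large as the 12 labelled BxPC3 and the 14 labelled Panc-1. In these sets SMAD4 state cannot be told apart from the line of origin. A difference between the sets is thus not tied to SMAD4 itself. Labels are used below as given, and whether they were exchanged between libraries was not tested. Because the sets rest on a measured value, no test was made between them. Epithelial KRT7, CDH1 and EPCAM were higher in every SMAD4-null library than in any SMAD4-expressing library, 3 of 7 epithelial markers. Mesenchymal VIM and ZEB1, 2 of 4, were lower, whereas FN1 was higher. Of the 4 epithelial markers that overlapped, KRT8, KRT18 and CLDN4 had lower medians in the SMAD4-null libraries. These were 461 against 2053 TPM, 521 against 1598 TPM and 74.2 against 161 TPM. KRT19 had a higher median, 1966 against 1220 TPM. The summed mesenchymal markers were 12.4 to 129 TPM against 3109 to 4565 TPM, and the summed epithelial markers were 4100 to 8197 TPM against 2496 to 8737 TPM. Of markers of other cells, PTPRC of leukocytes was at most 0.535 TPM and CD3E of T cells at most 0.393 TPM. MS4A1 of B cells was listed at 0 in each library. The other immune markers went opposite ways. CD14 had a higher median in the SMAD4-null libraries (9.77 against 0.757 TPM) and CD68 a lower one (9.76 against 61.8 TPM). The summed immune markers were 5.37 to 49.9 TPM against 44.5 to 141 TPM, nearly all from CD68 in the SMAD4-expressing libraries. The summed fibroblast markers were 14.3 to 42.3 TPM against 2.60 to 39.4 TPM, and the summed endothelial markers 3.16 to 16.97 TPM against 0.321 to 5.39 TPM. The part of these differences in the levels below was not tested. In bulk RNA, fewer cells with a transcript and less of it per cell cannot be told apart.

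Of the 8 members with a mean of at least 1 TPM in both sets, PMAIP1 and BCL2A1 varied most among clones, and BCL2L1 had the largest ratio of its spreads in the sets. The genomic sequence before the start of these 3 genes is therefore shown. RefSeq promoters on GRCh38.p14 were found for 9 of the 10 members, all but MCL1. The sequences run 5′ to 3′ on the strand of the gene, over up to 250 bases before its start and without bases that GENCODE 44 places in an exon of it. Capitals mark matches on either strand to 5 motifs: the E-box core CACGTG, the core of the cAMP response element TGACGT, the TATA box written as TATAAA, the CCAAT box and the Sp1-type box with letters GGGCGG.

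PMAIP1, chr18:59899746-59899995, plus strand: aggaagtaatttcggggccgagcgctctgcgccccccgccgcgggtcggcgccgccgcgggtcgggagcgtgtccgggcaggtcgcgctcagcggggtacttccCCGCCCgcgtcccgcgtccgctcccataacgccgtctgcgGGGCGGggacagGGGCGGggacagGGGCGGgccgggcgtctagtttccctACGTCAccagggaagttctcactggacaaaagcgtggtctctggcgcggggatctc
BCL2A1, chr15:79971197-79971446, minus strand: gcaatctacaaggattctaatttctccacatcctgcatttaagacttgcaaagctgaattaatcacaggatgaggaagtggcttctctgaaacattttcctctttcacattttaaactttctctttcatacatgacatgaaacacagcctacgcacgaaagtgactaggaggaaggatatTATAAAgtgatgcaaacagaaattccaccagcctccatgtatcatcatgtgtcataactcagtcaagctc
BCL2L1, chr20:31723990-31724213, minus strand: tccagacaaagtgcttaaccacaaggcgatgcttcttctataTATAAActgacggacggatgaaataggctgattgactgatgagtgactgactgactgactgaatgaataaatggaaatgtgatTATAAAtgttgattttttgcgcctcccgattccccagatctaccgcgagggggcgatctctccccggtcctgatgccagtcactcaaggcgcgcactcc

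The PMAIP1 sequence had a GC content of 72.8% and 36 CpG dinucleotides, against medians of 58% and 11 over the 250 bases of 35116 promoters. It held 4 Sp1-type boxes, which 42.6% of the promoters hold at least once, and 1 cAMP response element core, found in 7.10%. The BCL2A1 sequence had a GC content of 38.8%, 2 CpG dinucleotides and 1 TATA box, a motif of 10.7% of the promoters. BCL2L1 had a GC content of 47.8% over 224 bases and 2 TATA box matches. RefSeq lists a second start for BCL2L1, and the 250 bases before it, which are not shown, held none of the 5 motifs. The start farther upstream was chosen for display. The CCAAT box (32.0% of promoters) and the E-box core (6.34%) were in none of the 3 sequences. BAX, in contrast, had 4 E-box cores within 250 bases of its RefSeq start. These matches describe letters, not occupied sites.

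Among the anti-apoptotic genes, MCL1 and BCL2 were higher in the SMAD4-null libraries, and BCL2L1 and BCL2A1 had higher medians in the SMAD4-expressing libraries. MCL1 (ENSG00000143384, GRCh38 chromosome 1, 150560895 to 150579738), which encodes a short-lived guardian of BAK1, ranged from 170 to 281 TPM with a median of 218 in the SMAD4-null libraries. The SMAD4-expressing libraries ran from 75.6 to 153 TPM with a median of 85.5. The sets did not overlap, and the ratio of the medians was 2.55. The highest SMAD4-expressing library, library 18 labelled BxPC3, stood at 153 TPM, and the next, library 23, at 107 TPM.

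BCL2 (ENSG00000171791, chromosome 18, 63123346 to 63320128), the founding member of the family, was low throughout. Its range was 1.28 to 2.69 TPM with a median of 2.10 in the SMAD4-null libraries and 0.063 to 0.770 TPM with a median of 0.166 in the SMAD4-expressing libraries. The sets did not overlap, although the values rest on as few as 6.63 estimated counts. The mean over the 26 libraries, 1.05 TPM, reached the filter of 1 TPM only through the SMAD4-null libraries.

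BCL2L1 (ENSG00000171552, chromosome 20, 31664452 to 31723989) was tightly held in the SMAD4-null libraries, at 96.8 to 139 TPM with a median of 121. The SMAD4-expressing libraries spread from 89.1 to 368 TPM around a median of 189. Here 13 of the 14 lay above all SMAD4-null libraries, and only library 20, labelled BxPC3, lay below them. Library 18 held the highest value, as for MCL1.

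BCL2A1 (ENSG00000140379, chromosome 15, 79960892 to 79971196), an NF-kB target best known in blood cells, was 1.95 to 22.2 TPM with a median of 9.01 in the SMAD4-expressing libraries. In the SMAD4-null libraries the median was 1.32 TPM and the highest value 11.2 TPM, in library 4 labelled Panc-1. It had 0 estimated counts in libraries 3, 5, 6 and 7, all labelled Panc-1. A count of 0 allows up to 3 counts by counting error alone, which is 0.301 to 0.331 TPM here. Of the 12 SMAD4-null libraries 7 lay below the lowest SMAD4-expressing library, and the sets overlapped.

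**Figure D1:**
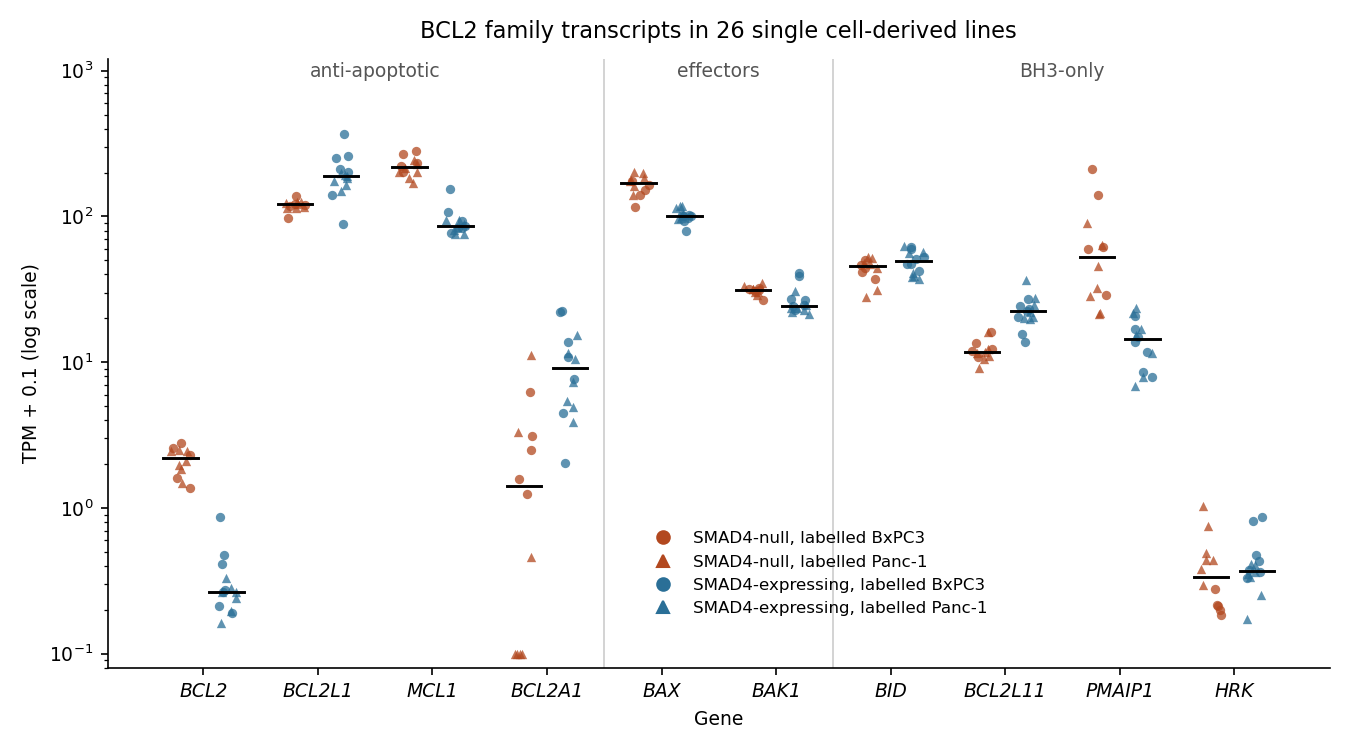
TPM plus 0.1 (log axis) of the 10 members in 12 SMAD4-null (orange) and 14 SMAD4-expressing (blue) libraries; each point is 1 clone, circles are labelled BxPC3 and triangles Panc-1, and black lines are medians. BCL2 and MCL1 do not overlap between the sets, and PMAIP1 and BCL2A1 spread widely among SMAD4-null clones.

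Of the effectors, BAX (ENSG00000087088, chromosome 19, 48954815 to 48961798) had a higher median in the SMAD4-null libraries. It was 116 to 203 TPM there with a median of 169, and 79.8 to 118 TPM with a median of 101 in the SMAD4-expressing libraries. The overlap came from 1 SMAD4-null library, library 21 labelled BxPC3 at 116 TPM, which lay below libraries 8 and 13 at 118 and 117 TPM. With TPM rescaled by TMM factors, the sets did not overlap, but only by a narrow margin. Library 21 then stood at 119.7 and library 8 at 119.4.

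BAK1 (ENSG00000030110, chromosome 6, 33572547 to 33580293), the effector that resides at the mitochondrion, was 26.6 to 35.1 TPM with a median of 31.4 in the SMAD4-null libraries. It was 21.3 to 41.1 TPM with a median of 24.3 in the SMAD4-expressing libraries. In the latter, 10 of 14 lay below every SMAD4-null library, while libraries 23 and 18 lay above all of them, at 41.1 and 38.8 TPM.

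Of the BH3-only genes, PMAIP1 had the higher median in the SMAD4-null libraries and BCL2L11 in the SMAD4-expressing libraries. PMAIP1 (ENSG00000141682, chromosome 18, 59899996 to 59904305) ranged from 21.2 to 211 TPM with a median of 52.8 in the SMAD4-null libraries, a 9.94-fold range among clones. The SMAD4-expressing libraries held 6.74 to 23.3 TPM with a median of 14.2. Library 21 stood highest, followed by library 26 at 141 TPM and library 4 at 89.6 TPM. Of the 12 SMAD4-null libraries 10 exceeded every SMAD4-expressing library, and libraries 3 and 6, at 21.2 and 21.7 TPM, did not.

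BCL2L11 (ENSG00000153094, chromosome 2, 111119378 to 111168444) was 9.06 to 16.1 TPM with a median of 11.7 in the SMAD4-null libraries. It was 13.7 to 36.4 TPM with a median of 22.3 in the SMAD4-expressing libraries, 12 of which exceeded all SMAD4-null libraries. Library 18, which was highest for BCL2L1 and MCL1 in its set, was lowest for BCL2L11.

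BID (ENSG00000015475, chromosome 22, 17734138 to 17774770), which links death receptors to mitochondria after cleavage by caspase 8, was 27.9 to 52.5 TPM with a median of 45.5 in the SMAD4-null libraries. The range was 37.3 to 62.3 TPM with a median of 49.0 in the SMAD4-expressing libraries, and the sets overlapped over most of this range. HRK (ENSG00000135116, chromosome 12, 116856144 to 116881441) was 0.086 to 0.930 TPM and 0.074 to 0.763 TPM, from 6.22 to 82.3 estimated counts, and the sets overlapped almost entirely. Under the label BxPC3, HRK was 0.086 to 0.179 TPM in the SMAD4-null and 0.230 to 0.763 TPM in the SMAD4-expressing libraries. Under Panc-1 the direction was the other, at 0.195 to 0.930 TPM and 0.074 to 0.315 TPM. The mean effective transcript length of HRK, an average over its splice forms, was 1324 to 5665 bases in the SMAD4-null libraries. It was 1540 to 5654 bases in the SMAD4-expressing libraries. The TPM of HRK thus also rest on how its few reads were assigned to splice forms.

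Of the members, 9 passed the filter of a mean of at least 1 TPM, and HRK did not. Of these 9, 2 did not overlap between the sets, both higher in the SMAD4-null libraries, where 30.3% of the 14763 genes that passed did not overlap in either direction and 14.5% were higher in the SMAD4-null libraries. No member was lower without overlap, against 15.8% of genes. The medians of 4 members were at least 2-fold apart, against 38% of genes. Without BCL2, which passed the filter only through the set in which it was high, 1 of 8 members did not overlap. The median log2 ratio of SMAD4-null over SMAD4-expressing medians was 0.13 over these 8 members, 0.37 over the 9 with BCL2, and -0.02 over all genes tested. The count depended on the libraries used: among those labelled Panc-1 alone, 5 of the 9 members and 42.5% of genes did not overlap.

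The order of the levels also differed. In the SMAD4-null libraries the medians fell from MCL1 through BAX, BCL2L1, PMAIP1, BID, BAK1, BCL2L11, BCL2 and BCL2A1 to HRK. Neighbours exceeded each other in 10 to 12 of 12 libraries, except that PMAIP1 exceeded BID in 7, BCL2 exceeded BCL2A1 in 8 and BCL2A1 exceeded HRK in 8. In the SMAD4-expressing libraries the order was BCL2L1, BAX, MCL1, BID, BAK1, BCL2L11, PMAIP1, BCL2A1, HRK and BCL2. Each member exceeded the next in 10 to 14 of 14 libraries, the fewest being for BAK1 over BCL2L11.

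MCL1 and BCL2L1 together made up most of the anti-apoptotic transcripts, in opposite proportions. Their TPM were set against the sum of BCL2, BCL2L1, BCL2L2, MCL1 and BCL2A1 in each library. MCL1 made up 53.5% to 66.6% of this sum in the SMAD4-null libraries, with a mean of 59.2% ± 3.68 (SD, n = 12), and 23.4% to 41.6% in the SMAD4-expressing libraries, with a mean of 28.9% ± 4.42 (SD, n = 14). BCL2L1 made up 27.7% to 39.1% and 44.9% to 68.9%. BCL2L2 made up 4.70% to 8.90% and 4.72% to 12.5%. BCL2 was at most 0.741% and BCL2A1 at most 6.53% of the sum in any library. The sum itself overlapped, at 318 to 439 TPM against 199 to 565 TPM.

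The ratio of MCL1 to BCL2L1 exceeded 1 in 12 of 12 SMAD4-null libraries, where it was 1.37 to 2.40 with a median of 1.89, and in 0 of 14 SMAD4-expressing libraries, where it was 0.339 to 0.927 with a median of 0.483. The order held within each label. It was 1.87 to 2.40 in the 5 SMAD4-null libraries labelled BxPC3 and 1.37 to 2.14 in the 7 labelled Panc-1. It was 0.339 to 0.927 and 0.382 to 0.505 in the 7 SMAD4-expressing libraries of each label. The value of 0.927 belongs to library 20, in which BCL2L1 was lowest, and its MCL1 level of 82.6 TPM lay among those of the other libraries of its set. Neither the translation nor the stability of the proteins was analysed here.

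**Figure D2:**
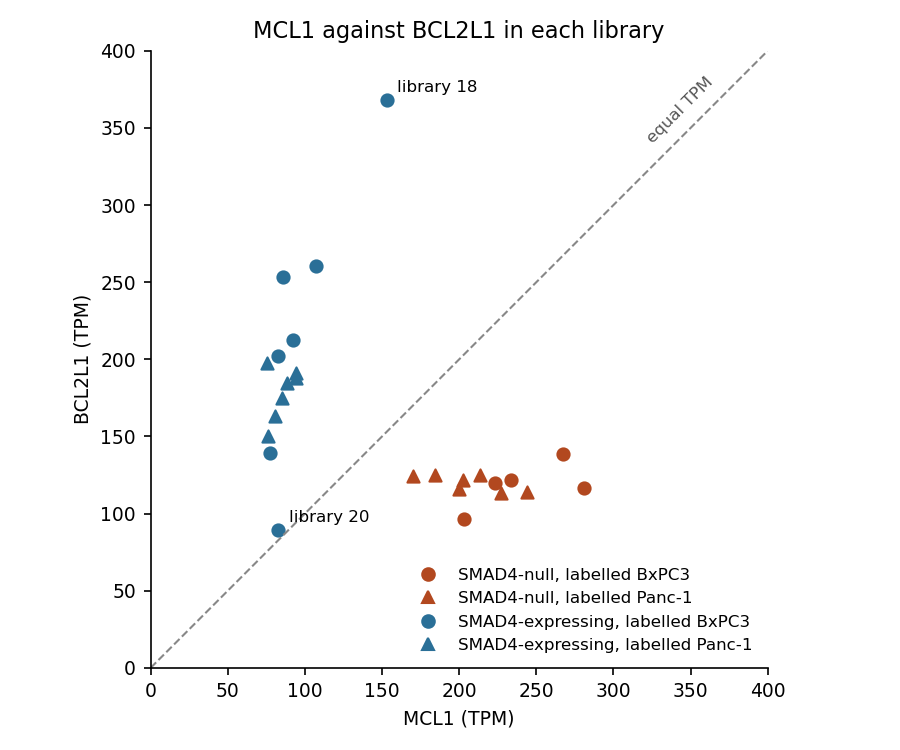
MCL1 (x axis, TPM) against BCL2L1 (y axis, TPM) in each of 26 libraries, with a dashed line at equal TPM; colours are the SMAD4 sets and symbols the labels. The 12 SMAD4-null libraries lie below the line with BCL2L1 at 96.8 to 139 TPM, and the 14 SMAD4-expressing libraries lie above it.

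Variation among clones of a set was taken as the SD of log2(TPM + 0.1). Quantification error was taken from the SD over the 30 technical resamples of the reads that kallisto had made for each library. The root mean square of these SDs over the libraries of a set is the technical SD. With 1 library per clone, error from culture and library preparation is part of the variation among clones. In the SMAD4-null libraries PMAIP1 had an SD of 1.05 and a technical SD of 0.05, and 4.80% of 14375 genes had a larger SD beyond the technical SD. BCL2A1 had an SD of 2.56 with a technical SD of 0.34, exceeded by 0.264% of genes. That value rests on the 4 libraries at 0 and fell to 1.23 with a pseudocount of 1 TPM. BAK1 and BCL2L1 were among the least variable genes, with SDs of 0.10 and 0.12, exceeded by 98.2% and 96.7% of genes. MCL1, BAX, BCL2L11, BID and BCL2 had SDs of 0.21, 0.23, 0.24, 0.29 and 0.34. For BID the technical SD alone was 0.20. The median SD over these 14375 genes was 0.33.

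In the SMAD4-expressing libraries the SD of BCL2L1 was 0.47, exceeded by 23.7% of 13826 genes, against 0.12 in the SMAD4-null libraries. By the median absolute deviation, scaled to an SD, these values were 0.28 and 0.07. Without library 20 the SD was 0.37. The wide range lay under the label BxPC3, at 89.1 to 368 TPM in 7 libraries. The 7 labelled Panc-1 ran from 150 to 198 TPM. BCL2A1 (SD 1.00, exceeded by 6.62% of genes) and PMAIP1 (0.58, exceeded by 16.8%) were again the most variable of the 8 members with a mean of at least 1 TPM in this set. BAX was the least variable, with an SD of 0.14 that 94.7% of genes exceeded. BID, BAK1 and BCL2L11 had SDs of 0.27, 0.29 and 0.34. The SD of MCL1 was 0.26 and fell to 0.15 without library 18. BCL2 and HRK, both under 1 TPM, had SDs of 0.62 and 0.59 with technical SDs of 0.23. No test of the spread between the sets was made.

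**Figure D3:**
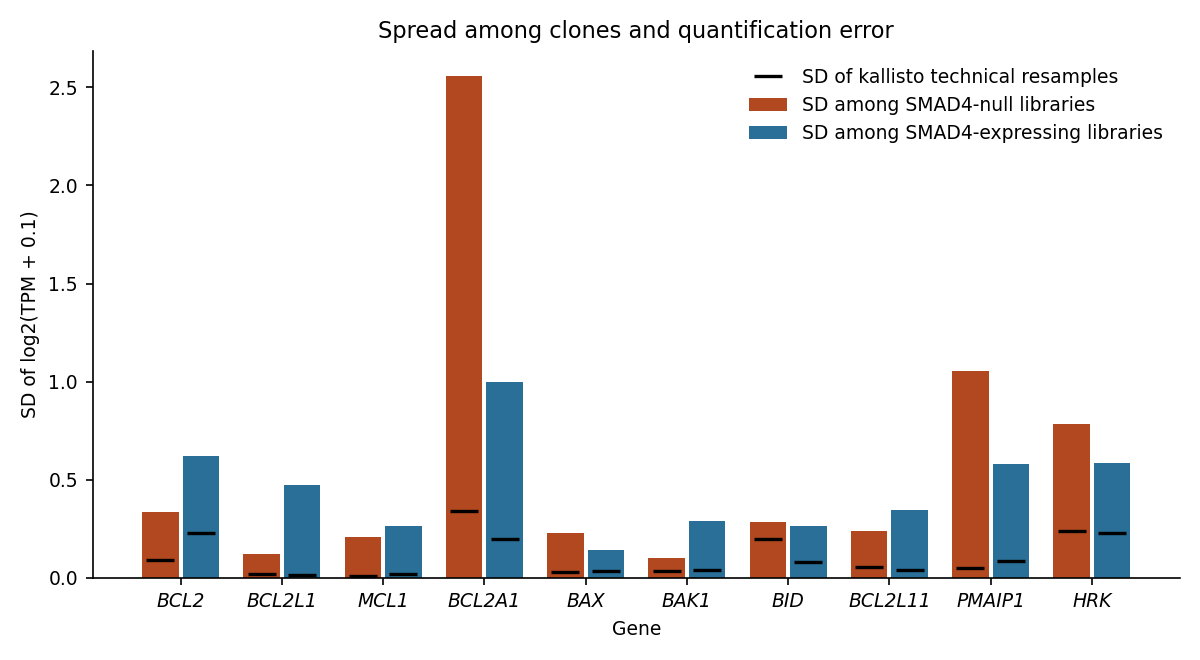
SD of log2(TPM + 0.1) of each member among the 12 SMAD4-null (orange bars) and the 14 SMAD4-expressing (blue bars) libraries. Black marks are the SD of 30 kallisto technical resamples, as the root mean square over the libraries of a set. BCL2A1 and PMAIP1 vary most among SMAD4-null clones, and BCL2L1 has an SD of 0.12 in the SMAD4-null and 0.47 in the SMAD4-expressing libraries. In the SMAD4-expressing libraries, BCL2L1 spans 89.1 to 368 TPM under the label BxPC3 and 150 to 198 TPM under Panc-1.

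Whether members varied together among clones was tested within each set, over 64 pairs of members with a median of at least 1 TPM, by two-sided permutation tests with 100000 permutations. No pair passed a Benjamini-Hochberg adjusted p of 0.05 by Spearman's rho, and 11 had an unadjusted p under 0.05. The strongest was PMAIP1 with BCL2A1 in the SMAD4-null libraries, with rho = 0.86 (permutation p = 0.00079, adjusted p = 0.0506) and Pearson's r = 0.77 (permutation p = 0.00379, adjusted p = 0.0749, n = 12). The 3 libraries highest in PMAIP1 were among the 4 highest in BCL2A1, and the 4 libraries without BCL2A1 had PMAIP1 at 21.2 to 45.7 TPM. These 4 libraries tied as the farthest from the median of BCL2A1, and r was 0.78 without libraries 6 and 7, 2 of the 4. Library 4, the highest in BCL2A1, stayed in, so that its weight is not shown by this value. Within the 7 of these libraries labelled Panc-1, rho was 0.81, and the 5 labelled BxPC3 were too few. In the SMAD4-expressing libraries, rho of this pair was -0.02.

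MCL1 and BCL2L11 gave rho = 0.81 (permutation p = 0.00226, adjusted p = 0.0555) and r = 0.86 (permutation p = 0.00051, adjusted p = 0.0326) in the SMAD4-null libraries, the only pair past the threshold by Pearson's r. Without the 2 libraries farthest from the median of MCL1, r was 0.70. In the SMAD4-expressing libraries the same pair had rho = -0.65 (permutation p = 0.0146, adjusted p = 0.123) and r = -0.68 (permutation p = 0.0107, adjusted p = 0.0860), and r was -0.59 without the 2 farthest libraries. Within labels, rho was 0.82 in the 7 SMAD4-null libraries labelled Panc-1 and, in the SMAD4-expressing libraries, -0.54 under the label BxPC3 and -0.71 under Panc-1. The difference between the sets was not tested.

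PMAIP1 also ran with MCL1 in the SMAD4-null libraries (rho = 0.78, permutation p = 0.00347, adjusted p = 0.0555; r = 0.75, permutation p = 0.00517, adjusted p = 0.0749), but r was 0.52 without the 2 libraries farthest in MCL1. In the SMAD4-expressing libraries BCL2L1 ran with BCL2A1 (rho = 0.75, permutation p = 0.00273, adjusted p = 0.0555; r = 0.74, permutation p = 0.00266, adjusted p = 0.0749, r = 0.63 without 2 libraries). For that pair, rho was 0.71 under the label BxPC3 and 0.43 under Panc-1. Neither relation passed the adjusted threshold.

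**Figure D4:**
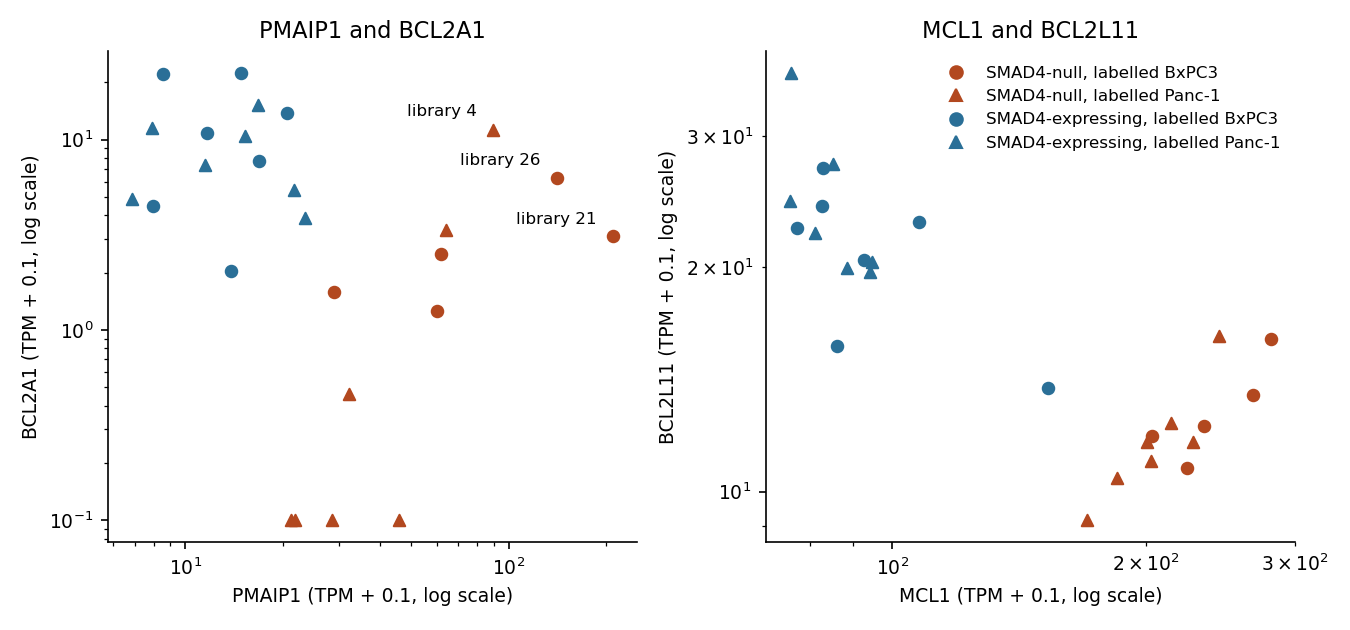
PMAIP1 against BCL2A1 (left) and MCL1 against BCL2L11 (right), both as TPM plus 0.1 on log axes, 1 point per library, with colours for the SMAD4 sets and symbols for the labels. In SMAD4-null libraries both pairs rise together (rho 0.86 and 0.81, adjusted permutation p 0.0506 and 0.0555), and in SMAD4-expressing libraries rho was -0.02 and -0.65.

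For each member with a median of at least 5 TPM in both sets, the genes most like it were sought among 9601 genes by Pearson's r of log2(TPM + 0.1) centred within each set, over the 26 libraries, as a description. PMAIP1 was most like ARRDC3 (r = 0.85), which encodes an arrestin-like protein, PTGER4 (r = 0.85), a prostaglandin E2 receptor gene, and MGST3 (r = 0.83). Their r was 0.91, 0.94 and 0.92 in the SMAD4-null libraries and lower, at 0.71, 0.59 and 0.53, in the SMAD4-expressing libraries. MCL1 was most like ASPH (r = 0.81), MOSMO and STAMBPL1 (both r = 0.78). The r of ASPH was 0.55 in the SMAD4-null and 0.92 in the SMAD4-expressing libraries. For BAX, MYPOP (r = 0.79) and MAD2L2 (r = 0.77) were among the nearest. Their r was 0.87 and 0.88 in the SMAD4-null libraries and 0.61 and 0.51 in the SMAD4-expressing libraries. For BCL2L1 the nearest were ANXA1 (r = 0.81), PHC2 (r = 0.80) and MORC4 (r = 0.78), but the likeness lay in the SMAD4-expressing libraries: r of ANXA1 was 0.89 there and -0.31 in the SMAD4-null libraries. BAK1 had TBC1D23 (r = 0.82), PITPNC1 and B3GNT5 (both r = 0.78), again mostly through the SMAD4-expressing libraries, where their r was 0.82 to 0.89 against 0.14 to 0.27 in the SMAD4-null libraries. BCL2L11 had the kinase genes PIM1 (r = 0.70) and JAK1 (r = 0.66) and the myosin gene MYO1E (r = 0.67). The r of PIM1 was 0.81 in the SMAD4-expressing and 0.28 in the SMAD4-null libraries. BID had PSMA6 (r = 0.60), PIM2 (r = 0.59) and RPL19 (r = 0.56), the weakest likeness of the 7 members.

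The other genes of the pathway were read by the same count of genes that did not overlap between the sets, beside 30.3% of all genes. Of 11 other BCL2 family genes with a mean of at least 1 TPM, out of 13 listed, 3 were higher and 1 was lower in the SMAD4-null libraries. BIK, a BH3-only gene, had a median of 11.2 TPM against 0.432 TPM. BAD, another BH3-only gene, had 102 against 62.7 TPM, and BCL2L12 had 144 against 70.8 TPM. BNIP3, a hypoxia-induced gene of mitochondrial clearance, had a median of 0.647 TPM in the SMAD4-null and 60.3 TPM in the SMAD4-expressing libraries. Like BCL2, BIK and BNIP3 passed the filter only through the set in which they were high. Their means in the other set were 0.433 and 0.662 TPM.

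Of 13 genes of the mitochondrial apoptosis machinery, 2 were higher in the SMAD4-null libraries (CASP6 and the channel gene VDAC3) and 4 were lower (CYCS, APAF1, AIFM1 and VDAC2). CYCS, which encodes cytochrome c, had a median of 177 against 367 TPM, and APAF1, the apoptosome scaffold, 4.79 against 8.64 TPM. AIFM1 had 44.3 against 103.2 TPM, and VDAC3 had 112 against 59.6 TPM. Of the 7 inhibitor of apoptosis genes, BIRC7 alone did not overlap. It was 1.15 to 16.7 TPM in the SMAD4-expressing libraries and at 0 in 11 of 12 SMAD4-null libraries, and was named after its values had been seen. BIRC7 passed the filter only through the SMAD4-expressing libraries, with a mean of 0.009 TPM in the SMAD4-null libraries.

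Of 15 genes of p53 and its targets, a list that also holds BAX and PMAIP1, 2 were higher (the death receptor genes FAS and TNFRSF10B) and 3 lower (RRM2B, ZMAT3 and SESN2) in the SMAD4-null libraries. FAS had a median of 26.02 against 2.11 TPM, and TNFRSF10B had 137 against 33.2 TPM. RRM2B had 9.25 against 27.7 TPM, and ZMAT3 had 2.94 against 7.75 TPM. Genes of the integrated stress response, which can induce PMAIP1 through ATF4, were mixed. Of 7, PPP1R15A was higher (70.2 against 25.2 TPM), and ASNS (56.8 against 152 TPM) and DDIT3 (22.4 against 58.8 TPM) were lower. Of 6 genes for the turnover of BCL2 family proteins, USP9X, which removes ubiquitin from MCL1, was higher (32.0 against 17.2 TPM). FBXO10, a ligase subunit for BCL2, was lower in the SMAD4-null libraries (4.48 against 24.1 TPM). The median log2 ratios were 0.34 for the other BCL2 family genes, -0.35 for the machinery, -0.58 for the inhibitors, -0.38 for p53 and its targets, -0.98 for the stress response and -0.22 for turnover.

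The labels were compared with edgeR's quasi-likelihood test over 16008 genes, 14 libraries labelled Panc-1 against 12 labelled BxPC3. No gene passed an adjusted p of 0.05, which is 0% of genes, and 367 (2.29%) had an unadjusted p under 0.05. None of the 10 members was below an unadjusted 0.05. The log2 fold change of Panc-1 over BxPC3 ranged from -0.82 (SE 0.53) for PMAIP1 to 0.27 (SE 0.16) for BAX, both with an edgeR adjusted p of 1.00. DESeq2 called 1 gene, MYH16, which is no member, and limma called none, with an unadjusted p below 0.05 for 305 genes. With the SMAD4 set in the edgeR model 0 genes passed and 1204 (7.52%) had an unadjusted p under 0.05, among them BAX (log2 fold change 0.20, SE 0.08, adjusted p = 0.615) and MCL1 (-0.21, SE 0.10, adjusted p = 0.661).

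Within the SMAD4-null libraries, HRK was higher in the libraries labelled Panc-1, at 0.195 to 0.930 TPM, than in those labelled BxPC3, at 0.086 to 0.179 TPM. HRK was thus under 1 TPM in each of these libraries. Its highest value, in library 4, came with its shortest mean effective transcript length, 1324 bases. Estimated counts were made from length-scaled TPM, so the fold changes of HRK also carry the assignment of reads to splice forms. The part of this in the fold changes and the interaction of HRK was not tested. The edgeR log2 fold change of 1.93 (SE 0.40) had an adjusted p of 0.404 over 16124 genes. Of these genes 0 passed and 1840 (11.4%) had an unadjusted p under 0.05. PMAIP1 was 21.2 to 89.6 TPM in the libraries labelled Panc-1 and 28.8 to 211 TPM in those labelled BxPC3 (log2 fold change -1.25, SE 0.49, edgeR adjusted p = 0.409). Within the SMAD4-expressing libraries the fold change of HRK had the other sign (-0.91, SE 0.37, edgeR adjusted p = 0.982), and 0 of 15161 genes passed with 700 (4.62%) at an unadjusted p under 0.05. The interaction of label and set for HRK was 2.82 on the log2 scale (SE 0.55, edgeR adjusted p = 0.251). No gene passed for the interaction, and 1273 (7.95%) had an unadjusted p under 0.05. These fits within and between sets were added after the data had been seen.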

How the data were processed

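Messenger RNA of 26 SCDCLs had been sequenced from poly-A enriched, strand-specific libraries. The authors quantified transcripts with kallisto 0.46.1 against Ensembl GRCh38 and deposited 1 table of genes made with tximport, which holds TPM, estimated counts made from length-scaled TPM, mean transcript lengths and 30 technical resamples of the reads per library. Estimated counts (expected counts) of the deposited table were rounded for count tests. The table is per gene, so that splice forms of a gene, such as those of BCL2L1, MCL1 and BCL2L11, cannot be told apart. The totals of 27035724 to 34945608 estimated counts limit precision at low levels, and intervals and floors cover counting error only. The closest pair of libraries differed by 44.5 times the counting variance over 13655 genes, so that none was counted as a duplicate. As each clone has 1 library, p-values rest on the spread between libraries, which holds differences between clones and error from culture and library preparation. In the label test without the SMAD4 set in the model, this spread also holds the difference between the sets.

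The libraries were grouped by SMAD4 under 1 TPM or not, and by label. SMAD4 sets were described and not tested. Genes with a mean of at least 1 TPM were counted as not overlapping where the lowest value of a set lay above the highest of the other. Log2 values had a pseudocount of 0.1 TPM. Labels were compared with edgeR 4.0.16 (R 4.3.3; filterByExpr, TMM, quasi-likelihood, Benjamini-Hochberg over all genes tested), and sleuth was not used. As edgeR gives no SE, the SE of a fold change was taken as its absolute value over the square root of the F statistic. DESeq2 1.42.0, limma 3.58.1 (log2(TPM + 1)), other scalings, pseudocounts and filters, single labels, the median absolute deviation, Pearson's r and leaving out each library were alternatives. Python 3.11.15, numpy 2.4.6, pandas 2.3.3 and scipy 1.17.1 were used, and figures were drawn with matplotlib 3.10.9. The label test and the summaries of members were tested on simulated data. The simulated counts of the label test held no difference between the SMAD4 sets, so the power of that test in these libraries was not measured. Of the 41078 genes, 36315 were matched to a symbol. Positions come from GENCODE 44 and promoters from RefSeq GRCh38.p14.

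The members, gene lists and tests were chosen with earlier results of these data known. All members and SMAD4 were named. From each list at most 4 genes were named, with the largest ratio among those that did not overlap and had a median of at least 5 TPM in the higher set, and for each member the 3 genes most like it, of which 1 for BAX is not reported here. Exceptions (CASP6, VDAC2, SESN2, BIRC7, MYH16, KRT8, KRT18, KRT19, CLDN4, CD3E, CD14 and CDH5) were named after their values had been seen.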

Additional observations from a re-analysis of the deposited data

How the results depend on the processing

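No paired analysis was possible because the labelled groups share no replicate numbers. The count of members that did not overlap between the SMAD4 sets was 2 in the main setting (30.3% of all genes) and without a filter (12.4%), 3 with TMM (31.1%) or DESeq2 scaling (32.4%; BAX added in both), 1 of 8 without BCL2 (an alternative chosen after seeing the data), 4 in libraries labelled BxPC3 alone (BAX and PMAIP1 added, with 41.5% of genes not overlapping) and 5 in those labelled Panc-1 alone (BAX, BCL2L1 and BCL2L11 added, with 42.5% of genes). Leaving out each library gave 1 to 3, with 30.4% to 31.6% of genes. It was 1 without library 2, 3, 5, 16 or 24, since the mean of BCL2 then fell under 1 TPM, and 3 without library 20 (BCL2L1 added) or 21 (BAX added). DESeq2 called 1 gene between the labels instead of 0. The count of correlated pairs was 0, but 3 with TMM scaling (MCL1 with BCL2L11, BCL2A1 with PMAIP1, and BCL2L11 with PMAIP1, all in the SMAD4-null libraries), 1 by Pearson's r, and 0 to 4 with each library left out, above 0 for 13 of the 26 libraries and highest without library 7. Of the log2 ratios between the sets, that of HRK, -0.14, lay between -0.33 and 0.03 with a library left out and was -1.02 in libraries labelled BxPC3 alone and 0.32 in those labelled Panc-1 alone. That of BCL2A1 was -2.68, but -6.19 in libraries labelled Panc-1 alone, where the SMAD4-null median is 0 and the value rests on the pseudocount. That of BID was -0.11, but 0.21 in libraries labelled Panc-1 alone. That of BCL2 was 3.05, but 1.41 with a pseudocount of 1 TPM. Levels under about 1 TPM (BCL2 in the SMAD4-expressing libraries, HRK, and BCL2A1 in some SMAD4-null libraries) rest on few counts.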

Other observations

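The mean effective transcript length is an average over the splice forms weighted by their abundance. It gave a view of forms of a gene that its TPM does not. An effective length is also corrected for the fragment sizes of a library, and their part in the differences was not tested. For BCL2L11 it was 2026 to 3001 bases with a median of 2612 in the SMAD4-null libraries and 2788 to 3663 bases with a median of 3109 in the SMAD4-expressing libraries. For BAX it was 680 to 783 bases with a median of 724 and 754 to 905 bases with a median of 816. For BCL2L1 it was 2087 to 2240 bases with a median of 2146 and 1896 to 2148 bases with a median of 1965. Each of these ranges overlapped between the sets, as they did for the other 7 members, and no test was made. For MCL1 the medians were 3067 and 3087 bases. Which forms were present was not analysed here.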
